A study of Mus musculus with 6 samples.

Results

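Zscan4c, Khdc3, Tex19.1, Crxos and Ct55 are mouse genes of the cleavage-stage embryo, the oocyte and the germ line that are silent in most adult tissues. They were chosen by name, with every probe annotated to them in the platform annotation, which gave 5 of the 6823 named genes tested and 7 of the 10057 probes with 1 gene symbol. All 7 probes passed the filter of detection on at least 2 of the 6 arrays. The Zscan4c probe and the second Ct55 probe passed through the cytokine arrays alone, and both Crxos probes through the stem cell arrays alone, so differences in these were built into the choice. The 5 genes were also picked with their levels on these arrays known, so their values below are a description and carry no test.

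The study compared 3 groups of male mouse cells of strain 129 x MF1, with 2 Illumina BeadChip arrays per group, to characterise germ cell-like cells induced by NANOG. Every group carried the same Nanog transgene, the control groups included. Mouse embryonic stem cells (mESCs) were kept in N2B27 medium with CHIR99021 at 3 µM, which inhibits GSK3, PD0325901 at 1 µM, which inhibits MEK, and LIF at 1000 U/ml. PGCLCs (primordial germ cell-like cells), which model in culture the precursors of sperm and eggs, were made from epiblast-like cells in GK15 medium and taken on day 4. One PGCLC group, cytokine PGCLCs, received 500 ng/ml of BMP4, 500 ng/ml of BMP8A, 100 ng/ml of SCF, 50 ng/ml of EGF and 1000 U/ml of LIF. In the other, Nanog PGCLCs, doxycycline at 0.7 µg/ml switched on the transgene. Whether PGCLCs were sorted, and which promoter or clone carries the transgene, is not stated in the labels. Since the media differ, effects of medium and of cell state cannot be told apart in comparisons with mESCs. The labels do not say that replicates were separate cultures, so p-values measure array-to-array spread alone, which may be technical in origin. In bulk RNA, fewer cells expressing a gene and less RNA per cell cannot be told apart.

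The arrays had median raw intensities of 226.2 to 294.3, with 8788 to 10028 probes detected at a detection p below 0.01. Replicate arrays correlated at 0.991 to 0.994 across genes. Of 8 germ cell markers with a named probe, all 8 were detected on both arrays of each PGCLC group. In mESCs, Prdm14 and Nanos3 missed detection on either or both arrays. Of 8 pluripotency markers, Klf4 was the 1 that missed detection on either or both arrays of each PGCLC group. Embryonic globins (Hba-x, Hbb-bh1 and Hbb-y) were detected on both cytokine PGCLC arrays, 3 of 3. In either other group 0 of 3 were detected on both arrays.

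Zscan4c belongs to a cluster of near-identical zinc finger genes that are switched on in the 2-cell embryo and, in culture, in a small changing fraction of embryonic stem cells, where they act in telomere maintenance. Khdc3, also called Filia, is part of the subcortical maternal complex, a protein assembly of the oocyte and cleavage embryo that also holds OOEP and TLE6. Crxos is a divergent homeobox gene next to Crx that is expressed in preimplantation embryos and stem cells. Tex19.1 acts in germ cells, placenta and stem cells, where it limits retrotransposons, and DNA methylation at its promoter keeps it silent in somatic cells. Ct55 is an X-linked gene of the cancer-testis type, a class normally restricted to germ cells.

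The promoter windows of 4 of the genes are shown, paired by the group in which they were highest. Zscan4c and Ct55 were highest in cytokine PGCLCs, while Tex19.1 and Crxos were highest in mESCs. The windows are from RefSeq (GRCm38.p6), run from 250 bases before to 50 bases after the annotated start, lie on the plus strand, and have each CpG in capitals. They are chr7:11005495-11005794 for Zscan4c, chrX:53724581-53724880 for Ct55, chr11:121145893-121146192 for Tex19.1 and chr7:15882367-15882666 for the first of 3 Crxos starts.
Zscan4c: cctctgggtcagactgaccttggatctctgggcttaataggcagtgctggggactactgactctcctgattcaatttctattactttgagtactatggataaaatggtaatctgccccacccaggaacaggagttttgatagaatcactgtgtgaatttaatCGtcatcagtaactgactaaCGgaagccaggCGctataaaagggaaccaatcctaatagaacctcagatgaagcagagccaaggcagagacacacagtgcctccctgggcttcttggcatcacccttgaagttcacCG
Ct55: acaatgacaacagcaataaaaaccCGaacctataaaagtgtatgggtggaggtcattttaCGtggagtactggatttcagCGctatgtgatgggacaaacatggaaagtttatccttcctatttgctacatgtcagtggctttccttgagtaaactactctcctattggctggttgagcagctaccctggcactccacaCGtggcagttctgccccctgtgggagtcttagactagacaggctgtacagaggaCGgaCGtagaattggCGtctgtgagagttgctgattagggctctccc
Tex19.1: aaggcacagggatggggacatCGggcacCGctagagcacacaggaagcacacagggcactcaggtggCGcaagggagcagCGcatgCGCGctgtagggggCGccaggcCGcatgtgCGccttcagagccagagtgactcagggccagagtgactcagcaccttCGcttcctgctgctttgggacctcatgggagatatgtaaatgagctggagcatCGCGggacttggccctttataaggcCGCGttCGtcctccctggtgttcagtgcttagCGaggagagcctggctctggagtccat
Crxos: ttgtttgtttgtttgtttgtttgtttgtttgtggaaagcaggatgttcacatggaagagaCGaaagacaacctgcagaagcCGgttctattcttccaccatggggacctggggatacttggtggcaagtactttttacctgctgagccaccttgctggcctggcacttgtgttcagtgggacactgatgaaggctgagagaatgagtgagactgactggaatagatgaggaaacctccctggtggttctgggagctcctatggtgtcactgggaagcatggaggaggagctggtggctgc
Tex19.1 stood apart from the other members in this feature, with 16 CpGs, above the median of 7 over 32841 RefSeq windows but below their upper quartile of 20. The Ct55 window held 7, the Zscan4c window 4, the 3 Crxos windows 2, 4 and 0, and the Khdc3 window (chr9:73102148-73102447, plus strand) 0. The GC share ran from 47.0% in Zscan4c to 61.3% in Tex19.1.

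Letter patterns bound by the E2F6, MGA and MAX complex, a repressor of germline promoters, were searched on both strands of the same windows. TCCCGC, the E2F-type pattern, was found in Tex19.1, at 33 bases before the start, and in none of the other members' windows. CACGTG, an E-box, was found in Ct55, at 53 bases before the start, where it contains 1 of the CpGs. TCCCGC occurs in 19.98% and CACGTG in 7.15% of all windows, so a match is a description of the sequence and not of a bound site. Tex19.2, the paralogue of Tex19.1 on the same chromosome, had 2 CpGs and neither pattern in its window, against 16 in Tex19.1.

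**Figure D1:**
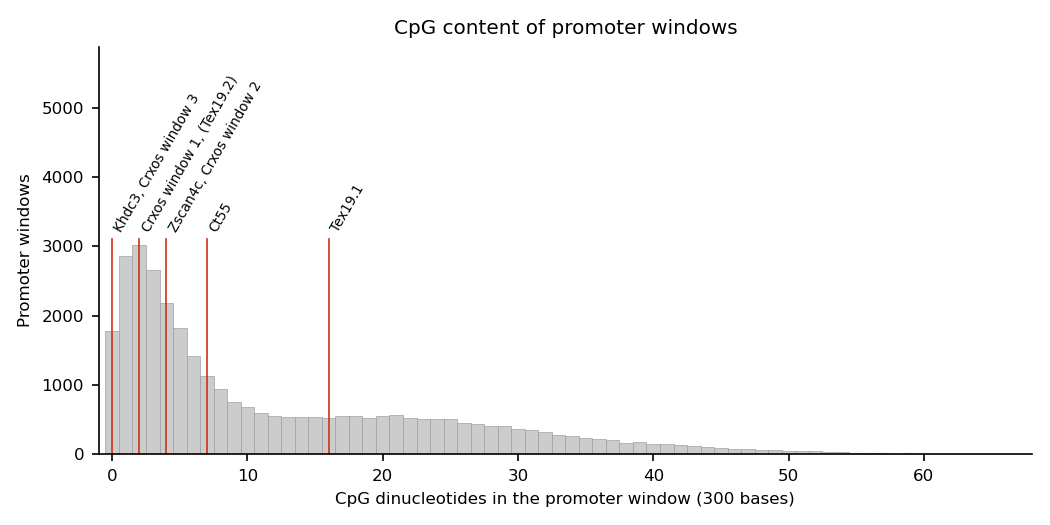
Number of CpGs in promoter windows of 300 bases (x axis) against the number of RefSeq windows with that count (y axis), for 32841 windows, with the members and Tex19.2 marked. Tex19.1 lies at 16, above the median of 7, and the windows of the other members lie at 0 to 7.

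Levels are given as normalized log2 intensity, where the dimmest detected probe of an array read 6.88 to 7.17. Where neither array of a group gave a probe a detection p below 0.01, the probe is called not well above background. Differences are in log2 units with the standard error of limma's fit over 9314 probes. Where the dim group was not above background the fold is a lower bound, "at least N-fold", set against the higher of the array's lowest detected signal and the probe's own.

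Zscan4c read 6.89 and 7.15 on the mESC arrays, 8.56 and 8.63 with cytokine induction, and 5.63 and 5.63 with Nanog induction. It was well above background in cytokine PGCLCs alone, and the 3 groups did not overlap. Raw intensities were 585.6 and 596.2 in cytokine PGCLCs against 304.7 and 385.7 in mESCs and 200.3 and 260.4 in Nanog PGCLCs. The mESC arrays lay close to the detection limit, with detection p of 0.0182 and 0.0128, whereas on the Nanog arrays the probe lay in the middle of the negative controls, with 0.49 and 0.5. Cytokine PGCLCs were at least 2.79-fold higher than mESCs (log2 difference 1.58 ± 0.11) and at least 3.25-fold higher than Nanog PGCLCs (-2.97 ± 0.11, Nanog minus cytokine). No fold is given between mESCs and Nanog PGCLCs, neither of which was above background. Zscan4c was the 1 Zscan4 gene with a named probe here, and the probe may also read its near-identical copies, so the value is uncertain as to copy.

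Khdc3 read 9.89 and 10.14 on the mESC arrays, 6.63 and 6.99 with cytokine induction, and 9.74 and 9.72 with Nanog induction. Levels in Nanog PGCLCs stayed near those of mESCs, and the cytokine arrays lay far below both. The Nanog-minus-mESC difference was -0.28 ± 0.14, and the gap of 0.14 between those groups was smaller than the 0.26 between the mESC arrays. Cytokine PGCLCs were 9.23-fold lower than mESCs (-3.21 ± 0.14) and 7.58-fold lower than Nanog PGCLCs (2.92 ± 0.14, Nanog minus cytokine). These folds are uncertain in size, since 1 of the 2 cytokine arrays detected the probe and the cytokine mean of 6.81 lay below the lowest detected signals there, 6.91 and 6.88. Among the 5 members, Khdc3 was the 1 higher in Nanog than in cytokine PGCLCs.

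The first Crxos probe read 9.39 and 9.36 on the mESC arrays, 6.68 and 6.40 with cytokine induction, and 5.71 and 5.59 with Nanog induction. It was above background in mESCs alone, and the mESC arrays lay apart from the rest. Levels in mESCs were at least 5.58-fold those in Nanog PGCLCs (-3.73 ± 0.12, Nanog minus mESC) and at least 5.57-fold those in cytokine PGCLCs (-2.84 ± 0.12, cytokine minus mESC). The second Crxos probe read 7.58 and 7.29 on the mESC arrays, 6.56 and 6.38 with cytokine induction, and 6.32 and 6.07 with Nanog induction. It again had mESCs above the rest, over a smaller range, with bounds of at least 1.45-fold against either PGCLC group. Across the 6 arrays the 2 Crxos probes correlated at 0.98, and the first read from 0.61 below to 2.07 above the second. Neither PGCLC group was above background on either probe, so the order of the 2 PGCLC groups is not ranked.

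Tex19.1 read 11.27 and 11.22 on the mESC arrays, 9.76 and 9.67 with cytokine induction, and 9.55 and 9.39 with Nanog induction. It was the 1 member detected on all 6 arrays, and both PGCLC groups lay far below mESCs. It was 3.42-fold lower in Nanog PGCLCs (-1.78 ± 0.10) and 2.89-fold lower in cytokine PGCLCs (-1.53 ± 0.10). The PGCLC groups lay side by side, differing by -0.24 ± 0.10 (Nanog minus cytokine), with a gap of 0.12 between groups against 0.16 between the Nanog arrays. In both PGCLC groups the gene was still far above background, with raw intensities of 896.3 to 1108.

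The first Ct55 probe read 7.63 and 7.74 on the mESC arrays, 8.23 and 8.21 with cytokine induction, and 6.03 and 5.92 with Nanog induction. It was above background in mESCs and cytokine PGCLCs and not in Nanog PGCLCs, with no overlap between groups. Levels were 1.45-fold higher in cytokine PGCLCs than in mESCs (0.53 ± 0.10). Nanog PGCLCs were at least 1.73-fold lower than mESCs (-1.71 ± 0.10) and at least 2.51-fold lower than cytokine PGCLCs (-2.24 ± 0.10). The second Ct55 probe read 6.96 and 6.96 on the mESC arrays, 7.55 and 7.72 with cytokine induction, and 6.69 and 6.13 with Nanog induction. It was highest and above background in cytokine PGCLCs alone, at least 1.44-fold over mESCs and at least 1.67-fold over Nanog PGCLCs. The 2 Ct55 probes correlated at 0.90 over the 6 arrays.

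**Figure D2:**
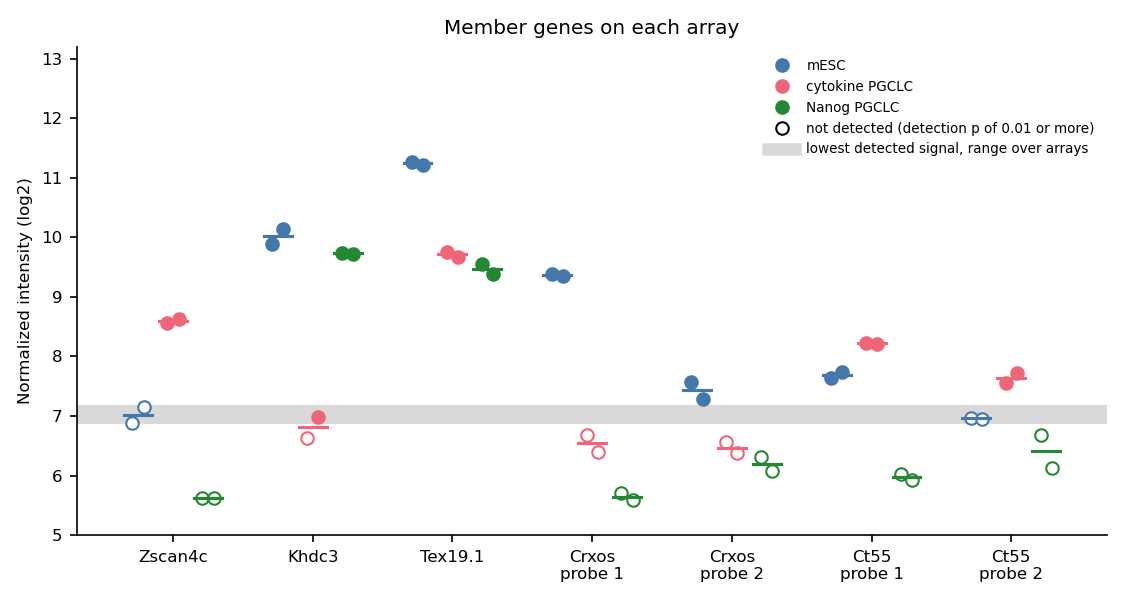
Normalized log2 intensity (y axis) of the 7 member probes on each of the 6 arrays, with points for single arrays, open points for arrays that did not detect the probe, short lines for group means and a grey band for the lowest detected signal of the arrays. Zscan4c and Ct55 are highest in cytokine PGCLCs, Khdc3 is low in cytokine PGCLCs, and Tex19.1 and Crxos are highest in mESCs.

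Counted by a fitted difference of at least 2-fold with arrays that did not overlap, 4 of the 5 genes were lower and 0 higher in Nanog PGCLCs than in mESCs, where 10.4% of all 6823 genes met that rule (3.56% lower and 6.87% higher). These 4 include Zscan4c, above background in neither group, and Ct55, whose bound is 1.73-fold, so by the folds and bounds given above 2 were at least 2-fold lower, Tex19.1 and Crxos. Against the same mESCs, cytokine PGCLCs had 1 gene higher, Zscan4c, and 3 lower, where 10.7% of all genes met it (6.99% higher and 3.66% lower). Between the PGCLC groups 1 gene was higher in Nanog PGCLCs, Khdc3, and 2 were lower, Zscan4c and Ct55, beside 2.45% of all genes (1.22% higher and 1.23% lower). The same folds and bounds gave those counts again in both comparisons with cytokine PGCLCs. Since these contrasts chose the members, nothing is read from the counts, and the first 2 comparisons share their mESC arrays. The members' median difference in cytokine PGCLCs against mESCs was -1.53, with 0.01 over all genes. In the other 2 comparisons the median fell on a probe not above background in the lower group or in both, and it is not given.

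In the authors' log2 values, which lie close to values without background correction, every member probe kept its direction but the differences were smaller. Directions between groups that were both not above background are not read. Zscan4c in cytokine PGCLCs over mESCs then stood at 0.83, Khdc3 at -2.01 in the same comparison, and Crxos at -2.11 in Nanog PGCLCs. Tex19.1, the brightest member, moved from -1.78 to -1.53 in Nanog PGCLCs. With those values 2 of the 5 genes were at least 2-fold lower in Nanog PGCLCs than in mESCs.

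**Figure D3:**
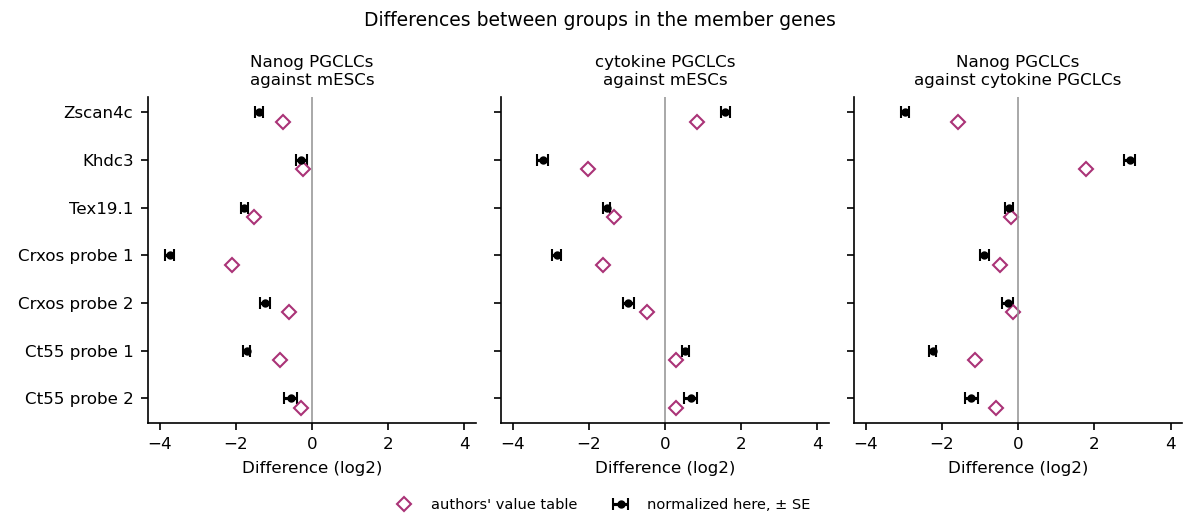
Log2 difference between groups (x axis) for each of the 7 member probes in the 3 comparisons, as normalized here with bars for ± SE and, as diamonds, in the authors' value table. Each probe keeps its sign, which is not read where neither group was above background. The differences from the authors' table are smaller, such as 0.83 against 1.58 for Zscan4c in cytokine PGCLCs over mESCs.

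Markers of other cell types also differed between the groups. Summed over genes, those of red cells, trophoblast and mesoderm were highest in cytokine PGCLCs, as Zscan4c and Ct55 were. The germ cell markers were highest there too, with a sum of 25261 to 25431. Their sum was 21088 to 21299 in Nanog PGCLCs and 11994 to 12294 in mESCs. Among them Dppa3 leaned towards Nanog PGCLCs and was not called (0.18, Nanog minus cytokine). Among the 3 measured trophoblast markers, Cdx2 and Krt8 rose in cytokine PGCLCs against mESCs (2.00 and 1.09), and Tfap2a was not called (-0.21). The summed linear intensity of the 3 embryonic globin genes was 1625 to 1658 in cytokine PGCLCs, 190.7 to 201.8 in mESCs and 154.6 to 175.2 in Nanog PGCLCs. The 3 measured trophoblast markers summed to 924.9 to 933.3 in cytokine PGCLCs, with all 3 detected on both arrays. Their sum was 515.7 to 531.3 in mESCs, where Cdx2 and Krt8 missed detection on either or both arrays. In Nanog PGCLCs it was 320.9 to 333.0, and there Cdx2 and Tfap2a missed detection on either or both arrays. The 2 mesoderm markers, Kdr and Evx1, summed to 734.0 to 751.0 in cytokine PGCLCs, 626.0 to 661.3 in mESCs and 271.6 to 315.9 in Nanog PGCLCs. That difference lay in Evx1, since Kdr was not called in any comparison (-0.27, -0.20 and -0.08). The 2 endoderm markers, Sparc and Dab2, had their highest sum in mESCs, at 1406 to 1408. Their sums were 754.3 to 794.7 in cytokine and 293.9 to 308.9 in Nanog PGCLCs. That order lay in Sparc, which fell in cytokine PGCLCs against mESCs (-1.05), while Dab2 rose there (0.44). The sums of the 2 fibroblast markers, Vim and Fn1, overlapped between mESCs (862.2 to 951.9) and cytokine PGCLCs (846.9 to 886.3). Against mESCs, Vim fell (-1.42) and Fn1 rose (0.78) with cytokines. In Nanog PGCLCs the sum was lower (494.5 to 566.0), which lay in Vim (-2.72), since Fn1 was not called against mESCs (0.20). Any part of these other cell types in the Zscan4c and Ct55 levels was not tested.

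The 3 tested genes most like each member were taken by Pearson correlation over the 6 arrays, which fall into 3 groups of 2, among genes whose range over the arrays was at least 0.5 of the member's. Zscan4c was followed most closely by Mycl, a Myc family transcription factor gene (r = 0.999), and by the WNT receptor genes Fzd10 (0.993) and Ror2 (0.983), among 529 candidates. Khdc3 was followed by Myo1f, an unconventional myosin gene (0.996), Glipr2 (0.981) and Eras, a Ras family gene of embryonic stem cells (0.980), among 322. For Crxos the closest were the WNT-induced Sp5 (0.997), the kinase gene Sgk1 (0.997) and the peptidase gene Mme (0.996), among 245. Ct55 was closest to the homeobox genes Meis2 (0.999) and Evx1 (0.996) and to Lhpp (0.995), among 1029. Tex19.1 had 41 genes with r over 0.99 among 1598 candidates, led by the thiamine transporter gene Slc19a2, Ahnak and Aoah (0.998 each). For Crxos 7 of its 245 candidates were over 0.99. Tex19.1 alone was detected on all 6 arrays. For the other members the correlations also use arrays that did not detect the probe, so the order of the closest genes is uncertain.

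Genes with related roles were then counted in 8 lists drawn up with the members' values known. Of 292 listed genes other than the members, 90 had a named probe and 77 were tested, which leaves most of the cleavage-stage and oocyte genes unmeasured here. Calls are at an adjusted p below 0.05 in limma's fit over all 6823 genes, which called 54.0% of genes in Nanog PGCLCs against mESCs (28.2% higher, 25.9% lower), 54.7% in cytokine PGCLCs against mESCs (29.9% higher, 24.8% lower) and 22.3% between the PGCLC groups (11.3% higher, 11.1% lower). The last share is the least stable, since its 1524 calls fell to 629 or 667 without 1 of the cytokine arrays and to 861 or 834 without 1 of the Nanog arrays. A majority of called members against mESCs is thus near the background. With scaling of each array to a common median instead of quantiles, the median of all genes moved to 0.21, 0.16 and 0.04, and the share of called genes that were higher was 76.5%, 72.9% and 63.3%, against 52.1%, 54.6% and 50.5%.

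Of the other cleavage-stage and 2-cell-like genes, 5 of 49 were tested, and 2 of these followed the direction of Zscan4c in cytokine PGCLCs. Gm428 read 6.81 and 6.97 on the mESC arrays, 7.89 and 7.73 with cytokine induction, and 6.43 and 6.62 with Nanog induction, with detection in cytokine PGCLCs alone. It was at least 1.62-fold higher in cytokine PGCLCs than in mESCs (limma adjusted p = 2.50e-04) and at least 1.88-fold lower in Nanog than in cytokine PGCLCs (2.15e-04). Tmem92, also detected in cytokine PGCLCs alone, was at least 1.17-fold higher there than in mESCs (adjusted p = 2.38e-04) and at least 1.37-fold higher than in Nanog PGCLCs (7.05e-04). Both genes entered the test through the cytokine arrays, as Zscan4c did. Fbxo15, an F-box gene of early embryos and stem cells, went the other way and fell in cytokine PGCLCs against mESCs (-1.09 ± 0.09, adjusted p = 3.70e-05). In all, 2 of the 5 rose, 1 fell and 2 were not called there (median -0.10), 0 rose and 3 fell in Nanog PGCLCs against mESCs (1 with median scaling), and 1 rose and 3 fell between PGCLC groups (median -0.40). Of the 3 that fell with Nanog, Gm428 was above background in neither group, and over the 3 genes that were in at least 1 the median was -0.50.

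The measured partners of Khdc3 in the maternal complex did not follow it. Ooep, which encodes a core subunit, read 11.49 and 11.35 on the mESC arrays, 12.03 and 12.26 with cytokine induction, and 12.13 and 12.02 with Nanog induction. It thus rose in both PGCLC groups, by 0.72 ± 0.11 with cytokines (limma adjusted p = 9.18e-04) and by 0.65 ± 0.11 with Nanog (0.00158). Tle6, a further subunit gene, read 9.24 and 9.11 on the mESC arrays, 10.28 and 10.28 with cytokine induction, and 10.82 and 10.67 with Nanog induction. It rose 2.15-fold with cytokines (1.10 ± 0.10, adjusted p = 5.47e-05) and 2.96-fold with Nanog (1.57 ± 0.10, 9.24e-06). On the same cytokine arrays Khdc3 stood at -3.21 log2 units against mESCs, opposite in sign to both. The zona pellucida gene Zp3 fell at least 1.78-fold in Nanog PGCLCs against mESCs (adjusted p = 2.16e-05). With cytokines it fell by 0.47, a call lost with median scaling and without mESC replicate 2 or either cytokine replicate (-0.49 to -0.21). Of 5 tested genes of this list, 3 rose, 1 fell and 1 was not called in each PGCLC group against mESCs (medians 0.65 with Nanog and 0.72 with cytokines), and 1 rose, 1 fell and 3 were not called between the PGCLC groups (median -0.05).

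Tex19.2, the paralogue of Tex19.1, was lower in both PGCLC groups, as Tex19.1 was. It read 7.73 and 7.95 on the mESC arrays, 6.30 and 6.58 with cytokine induction, and 6.27 and 5.99 with Nanog induction, and was detected in mESCs alone. It fell at least 1.92-fold in Nanog PGCLCs (limma adjusted p = 3.61e-05) and at least 1.92-fold in cytokine PGCLCs (1.06e-04). The 2 paralogues are alike in sequence, so a share of signal from the other gene was not tested. In the list of germline genes known to be sensitive to DNA methylation, 18 of 62 were tested. Of these 7 rose, 4 fell and 7 were not called in Nanog PGCLCs against mESCs (median 0.09), 7 rose, 5 fell and 6 were not called with cytokines (median 0.12), and 2 rose, 2 fell and 14 were not called between PGCLC groups (median 0.03). The 4 and 5 that fell were 2 and 3 with median scaling, and also 2 and 3 without mESC replicate 2. Of those that rose against mESCs, Tdrkh with Nanog and Smc1b with cytokines were above background in neither group. With genes at their bounds the medians against mESCs were -0.03 with Nanog, over 15 genes, and 0.04 with cytokines, over 17.

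Several genes of meiosis and germ cell structure in that list moved opposite to Tex19.1. Tex14, needed for the bridges that join dividing germ cells, read 6.90 and 6.88 on the mESC arrays, 8.94 and 8.83 with cytokine induction, and 9.15 and 9.12 with Nanog induction. It rose from below detection by at least 4.05-fold with Nanog (limma adjusted p = 1.43e-06) and at least 3.40-fold with cytokines (2.46e-06). Rec8, a meiotic cohesin, rose at least 1.73-fold with Nanog (adjusted p = 3.03e-05) and at least 2.63-fold with cytokines (5.80e-06), and Rad51c, a recombination factor, rose 3.18-fold and 2.76-fold (3.61e-05 and 7.46e-05). Tdrd12, a gene of the piRNA pathway, fell in both, by 1.06 ± 0.09 with Nanog and by 1.26 ± 0.09 with cytokines (3.51e-05 and 1.45e-05). With the authors' values the Tex14 rise with Nanog was smaller, 1.22 log2 units. Dazl, an RNA-binding protein gene of germ cells, was at 0.03 ± 0.10 and 0.01 ± 0.10 and was not called.

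Among the 4 genes of that list called between the PGCLC groups, Tdrkh and Smc1b had opposite directions. Tdrkh, a gene of the piRNA pathway, read 7.45 and 7.56 with cytokine induction and 6.20 and 6.44 with Nanog induction, and was detected with cytokines alone. It was at least 1.53-fold higher there (limma adjusted p = 2.68e-04). Smc1b, a meiotic cohesin, read 6.15 and 6.06 with cytokine induction and 7.04 and 7.07 with Nanog induction, and was detected with Nanog alone. It was at least 1.12-fold higher with Nanog (adjusted p = 3.96e-04).

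Among X-linked genes of the cancer-testis type other than Ct55, 4 of 57 were tested and none rose in any of the 3 comparisons. Xlr4a, of the X-linked lymphocyte-regulated family, whose near-identical copies may share its probe, read 11.04 and 11.08 on the mESC arrays, 10.79 and 10.82 with cytokine induction, and 8.94 and 9.09 with Nanog induction. It was 4.11-fold lower in Nanog PGCLCs than in mESCs (-2.04 ± 0.09, limma adjusted p = 2.37e-06) and 3.45-fold lower than in cytokine PGCLCs (-1.79 ± 0.09, 1.66e-05). Like Ct55, it was lowest in Nanog PGCLCs. All 4 fell in Nanog PGCLCs against mESCs (median -0.75). With cytokines 3 fell (median -0.39, 1 with median scaling and 1 without cytokine PGCLC replicate 2). Between PGCLC groups 1 fell, and no median is given, since a value or bound was left for 2 of the 4 genes. With genes at their bounds the medians against mESCs were -0.46 and -0.29.

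Of the PRD and OBOX homeobox genes related to Crxos, 3 of 23 were tested. Gsc, a homeobox gene of the organizer, fell at least 1.93-fold in both PGCLC groups against mESCs (limma adjusted p = 9.38e-06 with Nanog and 9.68e-06 with cytokines), the direction of Crxos. Otx2, a homeobox gene of the epiblast and brain, rose in Nanog PGCLCs against mESCs (0.72 ± 0.10, adjusted p = 5.21e-04) and was at 0.12 ± 0.10 with cytokines. Duxbl2, not above background in mESCs, was called higher in both PGCLC groups, with no fold given, and both calls were lost with the authors' values. With Nanog 2 rose and 1 fell, with cytokines 1 rose, 1 fell and 1 was not called, and between PGCLC groups 1 rose and 2 were not called. No median is given, since a value or bound was left for 2 of the 3 genes.

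**Figure D4:**
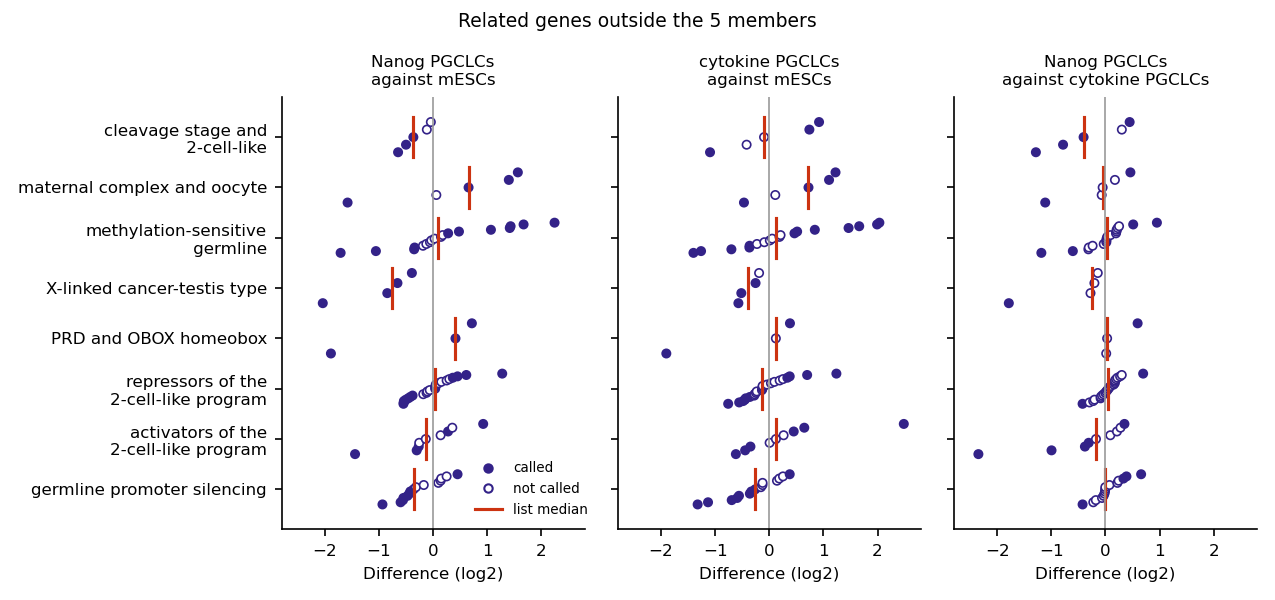
Log2 difference (x axis) of the 77 tested genes of 8 related lists in the 3 comparisons, with 1 point per gene, filled where limma's adjusted p was below 0.05, and a vertical bar at each list's median. The germline list spreads to both sides of 0 against mESCs, and 4 of 4 X-linked genes lie below 0 in Nanog PGCLCs.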

How the data were processed

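Expression was measured on 6 Illumina mouse BeadChips, grouped by the sample labels. The deposited intensity values are per-probe scanner summaries that, from the values, were not normalized, and the deposited detection p-values rank a probe among its array's negative controls, per the file headers. The authors' table holds log2 values whose 6 columns share 1 distribution, and the submitters' processing notes name limma with no version. No genome build applies to the array values.

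From 45281 raw intensities per array, background was corrected here with normexp (limma 3.58.1, R 4.3.3; offset 16; 936 negative controls implied by the detection p-values), followed by quantile normalization and log2. The filter left 10673 probes, those detected (p below 0.01) on 2 or more arrays. Symbols were counted over the 11542 probes of the authors' table, a part of the 45281. There the platform annotation gave 1 symbol to 10057 probes, several to 4 and none to 1481. The brightest named probe on average stood for each of 6823 genes. Shares of all genes thus refer to named genes from that table and not to every gene on the array. limma (lmFit and eBayes, 3 residual degrees of freedom, two-sided, Benjamini-Hochberg) fitted the 3 groups in 1 model, and the workflow was tested on simulated data.

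The members, lists and tests were chosen with earlier results of these data known. Named genes were the members, up to 4 genes per list and comparison with the smallest adjusted p, the detected paralogues, and the 3 genes most correlated with each member whose range was at least 0.5 of the member's. Dazl, Rad51c, Tex19.2 and Dnmt1 were chosen after their values were seen. Alternatives covered background, normalization, filter, probe choice, the authors' table, a variance trend, the replicate block and leaving out each array. Promoter windows are from RefSeq (GRCm38.p6) and all 5 members matched.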

Additional observations from a re-analysis of the deposited data

How the results depend on the processing

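All 7 member probes kept their sign in the 3 comparisons under every setting run. However, the filters, the variance trend, the block and the choice of probe cannot change a probe's difference. The sign is not read where neither group was above background. That was so for Zscan4c and the second Ct55 probe in Nanog PGCLCs against mESCs, and for both Crxos probes between PGCLC groups. Of the 21 differences, 18 moved by more than the spread between replicates without background correction, 18 with the authors' table, 14 with an offset of 50, 9 with median scaling and 2 with cyclic loess. The number of members at least 2-fold apart in Nanog PGCLCs against mESCs fell from 4 to 2 without background correction, to 2 with the authors' table and to 2 with detection on at least 4 arrays. With that last filter it was 2 in cytokine PGCLCs against mESCs, since Zscan4c and Crxos were detected on 2 arrays each. Leaving out 1 array moved the genes called between PGCLC groups from 1524 to a range of 629 to 1582, with 629 and 667 without cytokine PGCLC replicates 1 and 2, and 861 and 834 without Nanog PGCLC replicates 1 and 2. Genes of the related lists called there went from 22 to a range of 12 to 21, with 13 and 12 without cytokine PGCLC replicates 1 and 2 and 13 without Nanog PGCLC replicate 1. These fits hold fewer samples. Calls of Fbxo15 and Tle6 between PGCLC groups were lost without either cytokine replicate or Nanog PGCLC replicate 1 (0.38 to 0.46). With median scaling, repressors of the 2-cell-like program in Nanog PGCLCs against mESCs went from 4 higher and 7 lower to 7 higher and 2 lower. With the mean of all named probes, Nanog itself turned from -0.38 to 0.71 in Nanog against cytokine PGCLCs, since its 2 probes oppose. Same-numbered arrays of different groups did not deviate together (r = 0.04, 0.08 and -0.00). This check cannot tell whether they shared a culture, day or chip, which the labels do not state. The replicate block gave 3698, 3730 and 1509 genes called against 3687, 3735 and 1524. The number of arrays, and signals near background for Zscan4c, Crxos and Ct55, limit the sizes given.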

Other observations

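Known regulators of the 2-cell-like state, in which Zscan4 genes are active, moved in both directions. Smchd1, a chromatin protein that silences clustered genes, rose 2.42-fold in Nanog PGCLCs (1.28 ± 0.09, limma adjusted p = 1.51e-05) and 2.36-fold in cytokine PGCLCs (1.24 ± 0.09, 1.74e-05) against mESCs. Zmym2, a repressor of endogenous retroviruses, rose by 0.61 ± 0.10 and 0.70 ± 0.10 (0.00107 and 5.27e-04). Chaf1b, a subunit gene of the chromatin assembly factor CAF-1, fell with cytokines (-0.76 ± 0.10, 4.00e-04) and was at -0.06 ± 0.10 with Nanog. Trim28, a corepressor of retroviruses, fell with Nanog (-0.54 ± 0.10, 0.00192). Of 23 tested repressors, 4 rose, 7 fell and 12 were not called with Nanog (median 0.04), 4 rose, 6 fell and 13 were not called with cytokines (median -0.13), and 1 rose and 1 fell between PGCLC groups (median 0.05). Of 9 tested activators, 2 rose and 3 fell with Nanog (median -0.14), and 3 rose and 3 fell with cytokines (median 0.12). Between PGCLC groups 1 rose and 4 fell (median -0.18). The 4 include Nanog itself, whose brighter probe read -0.38 and whose other probe read 1.80 ± 0.10, Nanog minus cytokine. Gata2, an activator of the state, was higher in cytokine than in Nanog PGCLCs (-2.35 ± 0.17, Nanog minus cytokine, adjusted p = 7.8e-05). Tbx3, a further activator, was also higher in cytokine than in Nanog PGCLCs. Against mESCs it read -1.44 with Nanog and -0.45 with cytokines, where another probe read -0.04. Dppa4, of the same list, leaned the other way between the PGCLC groups (0.28, Nanog minus cytokine). It read 0.92 with Nanog and 0.65 with cytokines against mESCs, and its other probes had the same signs.

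Genes that silence germline promoters were called lower more often than higher against mESCs. Over all genes 28.2% were called higher and 25.9% lower with Nanog, and 29.9% and 24.8% with cytokines. Of 15 tested, 1 rose, 8 fell and 6 were not called in each (medians -0.36 with Nanog and -0.26 with cytokines), and 3 rose and 1 fell between the PGCLC groups (median -0.00). With median scaling 4 rose and 7 fell with Nanog, and 4 rose and 6 fell with cytokines. Under that scaling 76.5% and 72.9% of all called genes were higher. Pcgf6, a subunit gene of the Polycomb complex at germline promoters, fell by 0.60 ± 0.11 with Nanog and by 0.59 ± 0.11 with cytokines (limma adjusted p = 0.00190 and 0.00200). Dnmt1, the maintenance DNA methyltransferase gene, was the 1 that rose, by 0.45 ± 0.09 and 0.38 ± 0.09 (0.00333 and 0.00798), while Uhrf1, its partner at replication forks, fell by 0.69 ± 0.10 with cytokines (6.96e-04). The members' levels were not tested against these regulators.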
